A study of Bos taurus with 28 samples.

Results

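ACTA2, MYLK, SYNC, RGS2, TNS1 and FBXO32 are 6 genes of muscle and of the cytoskeleton that were examined together across uterine biopsies of heifers. They were taken by name, ACTA2 as ENSBTAG00000014614 and the others by the names the study gives to its gene IDs (MYLK ENSBTAG00000014567, SYNC ENSBTAG00000026684, RGS2 ENSBTAG00000034366, TNS1 ENSBTAG00000002485 and FBXO32 ENSBTAG00000016194). They make up 6 of the 24596 genes counted, and all 6 passed the filter on low counts that left 15163 genes over the 28 heifers. ACTA2 and MYLK had been seen to weigh on the main component of HF and CTRL heifers, and the names come from a list ordered by the LF against CTRL comparison, so differences from CTRL heifers are given here as descriptions with no test.

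The study asked how the bovine uterus responds to sperm of bulls that differ in fertility. Nulliparous heifers, cross-bred per the study's methods and Holstein-Friesian per the labels, all had their oestrus synchronised with a progesterone device, GnRH and prostaglandin. The HF heifers (n = 10) were inseminated with frozen-thawed semen of 5 high fertility bulls, the LF heifers (n = 10) with that of 5 low fertility bulls, and the CTRL heifers (n = 8) received no semen. Each bull served 2 heifers, which fell in different study replicates. Heifers were slaughtered 12 h after insemination, and tissue was taken between the caruncles with an 8 mm punch from the horn on the side of ovulation. The endometrium, the inner lining, was then cut away from the myometrium, the muscle wall, with blades, and how much muscle stayed in each sample was not measured. Each heifer gave 1 sample, so the spread between samples is a spread between animals. Total counts were 14872812 to 25633259 per heifer, and the 10 most abundant genes took 5.48% to 9.38% of them. No pair of heifers agreed within sampling noise.

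Smooth muscle cells shorten when myosin pulls on actin filaments, which happens once the light chain of myosin is phosphorylated. ACTA2 encodes the smooth muscle alpha-actin of those filaments, and MYLK the kinase that phosphorylates the light chain. SYNC encodes syncoilin, an intermediate filament protein of muscle. TNS1 encodes tensin 1, which ties actin to the adhesions where cells hold the matrix. RGS2 encodes a regulator that shortens signals through Gq, the G protein that couples several receptors for contractile agonists. FBXO32 encodes atrogin-1, a subunit of a ubiquitin ligase known for its part in muscle wasting. In the uterus, smooth muscle forms the myometrium and the walls of blood vessels.

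The levels of ACTA2 differed by up to 28.4-fold between heifers. Levels are given as CPM, that is counts scaled to library size with TMM factors. In HF heifers ACTA2 ran from 297 CPM in HF4, with a median of 728.5, to 5035 CPM in HF5. In LF heifers it ran from 249 CPM in LF3, with a median of 1452, to 3188 CPM in LF10. The CTRL heifers had 464 CPM in CTRL3, a median of 3576 and 7092 CPM in CTRL4. High and low heifers occurred in all 3 treatments, and the treatments overlapped. The widest gap between neighbouring heifers lay between 1232 and 2084 CPM, with 3 HF, 5 LF and 5 CTRL heifers above it and 7 HF, 5 LF and 3 CTRL heifers below it.

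MYLK covered 69.2 to 510 CPM in HF heifers (median 151), 66.3 to 727.5 CPM in LF heifers (median 170) and 118.5 to 1314 CPM in CTRL heifers (median 503). The same heifer, LF3, had the lowest ACTA2 and the lowest MYLK, while LF10 had the highest of both among LF heifers. SYNC was far less abundant, with 7.72 to 69.2 CPM in HF (median 14.65), 4.39 to 46.9 CPM in LF (median 16.8) and 8.96 to 173 CPM in CTRL heifers (median 48.3). Its highest HF value was in HF3 and its highest CTRL value in CTRL1, both heifers above the gap in ACTA2.

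RGS2 had 17.99 to 143 CPM in HF heifers (median 92.1), 12.4 to 332 CPM in LF heifers (median 44.5) and 24.4 to 496 CPM in CTRL heifers (median 95.2). The 2 highest levels were in CTRL6 and CTRL7, and the highest of the inseminated heifers was LF7. A second bovine locus is also listed under the name RGS2. Whether the 2 loci share reads could not be checked, so the level of RGS2 is uncertain to that extent. ACTA2 has close actin relatives, and the MYLK count includes any short transcript made from within the gene.

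TNS1 was the steadiest of the 6 genes, with 50.3 to 354 CPM in HF heifers (median 229), 30.6 to 394 CPM in LF heifers (median 195) and 111.5 to 527 CPM in CTRL heifers (median 224). FBXO32 was the most variable, with 6.45 to 57.5 CPM in HF heifers (median 28.03), 0.829 to 40.4 CPM in LF heifers (median 20.0) and 1.84 to 128 CPM in CTRL heifers (median 29.2). Its lowest level, in LF8, rested on 15 counts, so its 155-fold range is not a matter of absent reads. For both genes the lowest heifer of each treatment was not the lowest in ACTA2.

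**Figure D1:**
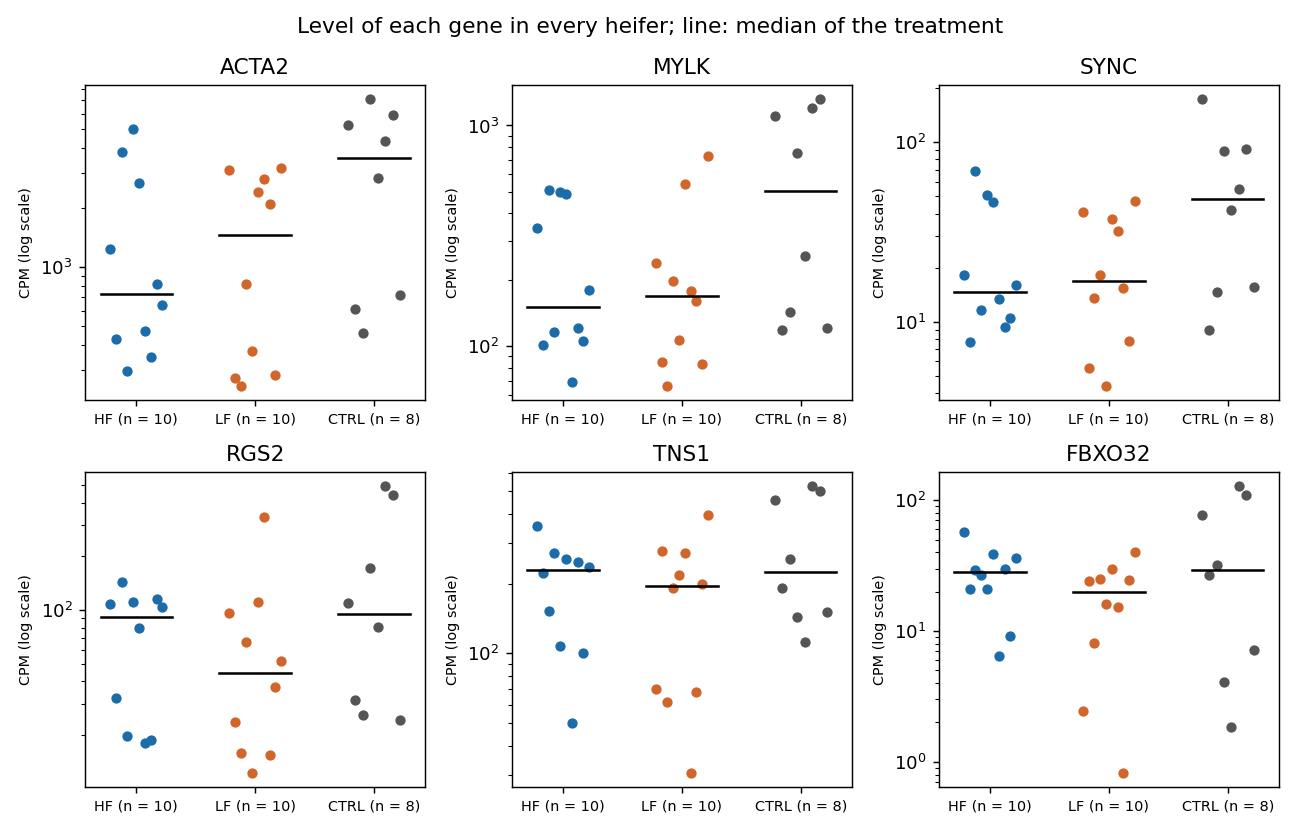
CPM of each of the 6 genes on a log axis (y) in HF (n = 10), LF (n = 10) and CTRL (n = 8) heifers (x). Points are heifers and lines are treatment medians. The points of the 3 treatments overlap for every gene, and ACTA2 runs from 249 to 7092 CPM.

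The 6 genes varied between heifers of the same treatment far more than most genes did. ACTA2 and MYLK had been picked for their weight on a main component of these data. Such a choice favours variable genes, so their spread is a description and no separate result. The standard deviation (SD) of log2 CPM within treatments was 1.57 for ACTA2, 1.27 for MYLK, 1.28 for SYNC, 1.49 for RGS2, 1.01 for TNS1 and 1.69 for FBXO32, and the median of all 15163 genes was 0.44. They therefore lay between the 93.1 percentile, for TNS1, and the 99.3 percentile, for FBXO32. The median SD over the 6 genes was 1.38, and it was 1.34 to 1.41 when each heifer was left out in turn.

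Heifers inseminated with semen of the same bull often differed in level, and no fold between heifers of different bulls is given here for comparison. Their ACTA2 differed by 1.10 to 11.1-fold (median 5.38-fold), and in 8 of the 10 bulls by more than 2-fold. TNS1 differed by 1.04 to 9.03-fold and exceeded 2-fold in 5 of 10 bulls. For RGS2 the median was 1.785-fold, with 4 of 10 bulls over 2-fold. LF2 and LF7, which shared a bull, had 273 and 2800 CPM of ACTA2 but 277 and 30.6 CPM of TNS1, so the order of the pair was opposite in the 2 genes. The pairs of a bull were always in different study replicates, so bull and study replicate are balanced but a pair also differs in replicate. Between the main crosses, the median of ACTA2 was 815 CPM in 11 Limousin crosses and 1817 CPM in 10 Charolais crosses. Their deviations from the treatment means were -0.25 ± 1.53 and 0.33 ± 1.45 (SD, log2), which differed by less than their spread.

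ACTA2, MYLK, SYNC and RGS2 rose and fell together from heifer to heifer, whereas TNS1 and FBXO32 did not follow ACTA2. Correlations were taken over the 28 heifers after the mean of each treatment had been removed from log2 CPM. SYNC had the closest relation to ACTA2, with a Pearson r of 0.91 and a Spearman rho of 0.89. It was on the same side of its treatment mean as ACTA2 in 25 of 28 heifers. For RGS2 the values were 0.76 and 0.72, with 23 of 28 heifers on the same side. In permutation tests within treatments (2-sided, 100000 resamples) both r values of SYNC and RGS2 gave p = 1e-05, the smallest these permutations can give, and the rho of RGS2 gave p = 6e-05. Both genes were chosen with earlier results of these data known, which these p-values do not take into account. Of the named genes 14.3% rose with ACTA2 in the edgeR fit below, and of all genes 7.95%.

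MYLK had r = 0.88 and rho = 0.84 with ACTA2. These 2 genes were picked together from HF and CTRL heifers, so their relation is a description. In the LF heifers r was 0.83 (rho 0.90, n = 10). The list of names was ordered by LF against CTRL, so the LF heifers are no separate check.

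TNS1 had r = -0.04 with ACTA2 (permutation p = 0.863) and FBXO32 had r = 0.01 (permutation p = 0.961), with 12 and 14 of 28 heifers on the same side. Among the 15162 other genes, ranked by their r with ACTA2, SYNC was at place 26, MYLK at 49 and RGS2 at 192, but FBXO32 was at 7010 and TNS1 at 7516. These 5 relations with ACTA2 were the only ones given a permutation test, and the adjustment over all genes is that of the edgeR fit given next.

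A model of each gene on ACTA2 and treatment, fitted across all genes with edgeR's quasi-likelihood test and Benjamini-Hochberg adjustment, gave the same division. SYNC changed by 0.73 ± 0.07 (SE) log2 units per log2 unit of ACTA2 (adjusted p = 1.17e-08) and RGS2 by 0.80 ± 0.13 (adjusted p = 2.11e-04). The slope of MYLK was 0.74 ± 0.08. In contrast, the slopes of TNS1 (0.04 ± 0.12, adjusted p = 0.837) and FBXO32 (0.18 ± 0.18, adjusted p = 0.464) did not pass the test. Of the 15162 genes, 7.95% rose with ACTA2 at an adjusted p under 0.05 and 3.5% fell, 11.4% or 1736 genes in all, a number that ran from 892 without HF5 to 2993 without LF10. In a bulk sample, fewer muscle cells and less of these transcripts in each cell cannot be told apart.

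**Figure D2:**
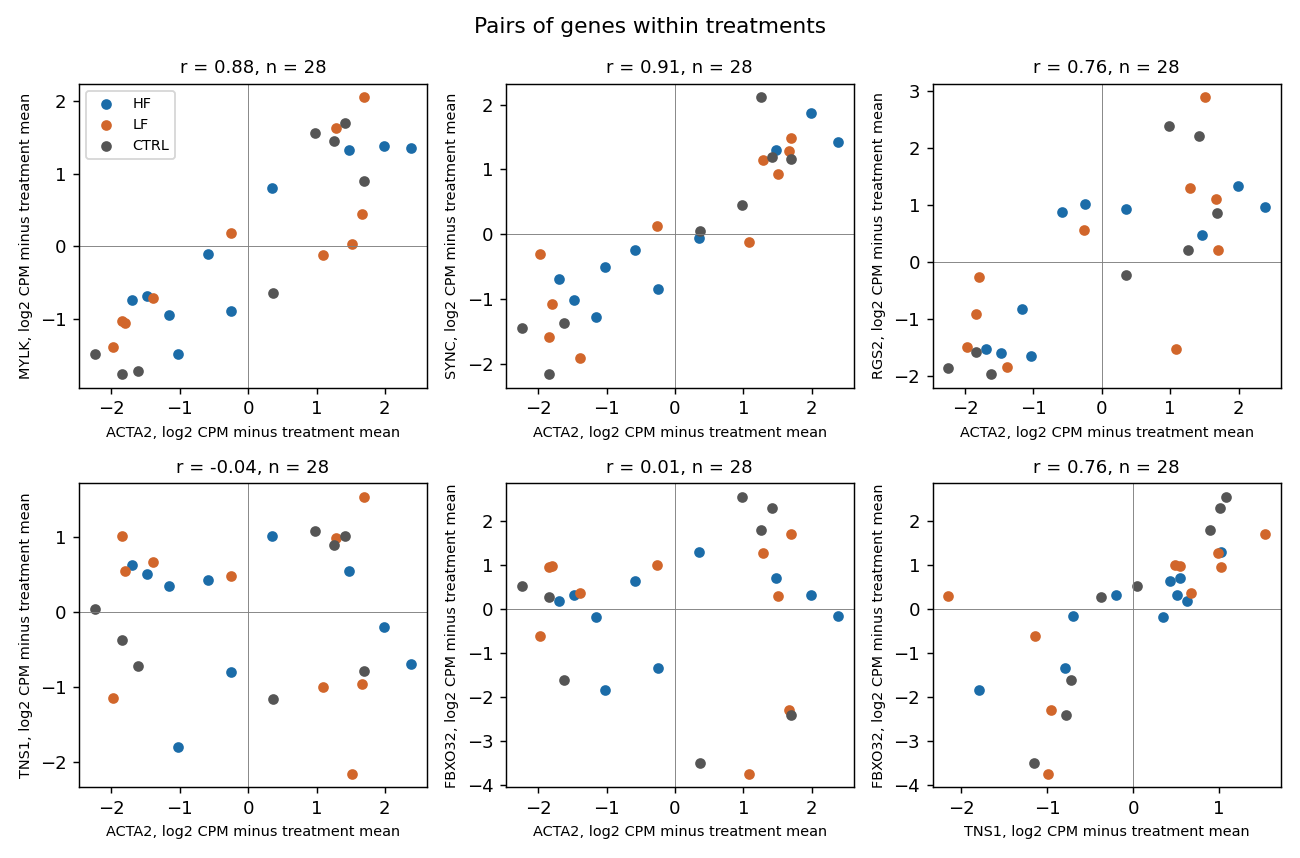
log2 CPM minus the treatment mean of 6 gene pairs, with 1 point per heifer (n = 28) coloured by treatment. SYNC, MYLK and RGS2 climb with ACTA2 (r = 0.91, 0.88 and 0.76), TNS1 and FBXO32 do not (r = -0.04 and 0.01), and FBXO32 climbs with TNS1 (r = 0.76).

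The relations of SYNC and MYLK with ACTA2 held in every treatment and in both study replicates. For SYNC, r was 0.93 in HF, 0.87 in LF and 0.94 in CTRL heifers, and 0.90 and 0.92 in study replicates 1 and 2. For MYLK, r was 0.90, 0.83 and 0.92 in HF, LF and CTRL heifers, and 0.94 and 0.82 in the study replicates. In study replicates 1 and 2, r of ACTA2 was -0.34 and 0.18 with TNS1 and -0.35 and 0.25 with FBXO32, and r of MYLK with TNS1 was -0.06 and 0.69. RGS2 was looser in study replicate 2 (r = 0.61) than in study replicate 1 (r = 0.93), and none of these differences between replicates was tested. Without the 2 heifers farthest from the median of ACTA2, r was 0.90 for SYNC, 0.87 for MYLK and 0.74 for RGS2. Within the 15 heifers below the gap in ACTA2 and the 13 above it, r was 0.63 and 0.67 for SYNC and 0.79 and 0.48 for MYLK. For RGS2 it was 0.82 below the gap and 0.25 above it, where LF8 had 15.4 CPM of RGS2 at 2084 CPM of ACTA2 and LF7 had 332 CPM at 2800 CPM. Splitting the heifers on ACTA2 narrows its range, which alters r by itself. The differences between heifers below and above the gap were not tested.

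TNS1 and FBXO32 varied together, as many genes did with TNS1. Their r over the 28 heifers was 0.76 and their rho 0.86, which put FBXO32 at the 87.7 percentile of all genes by r with TNS1, and 24 of 28 heifers lay on the same side for both. The value was 0.90 in HF, 0.64 in LF and 0.96 in CTRL heifers, and 0.79 and 0.75 in study replicates 1 and 2. At high ACTA2 both low and high FBXO32 were found. CTRL4, CTRL5, LF1 and LF8 had 2084 to 7092 CPM of ACTA2 but 0.829 to 4.08 CPM of FBXO32, and their TNS1 was 68.3 to 144 CPM. CTRL1, CTRL6 and CTRL7 had 4334 to 5870 CPM of ACTA2 with 76.6 to 128 CPM of FBXO32 and 461 to 527 CPM of TNS1. These 7 heifers were picked after their values were seen.

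**Figure D3:**
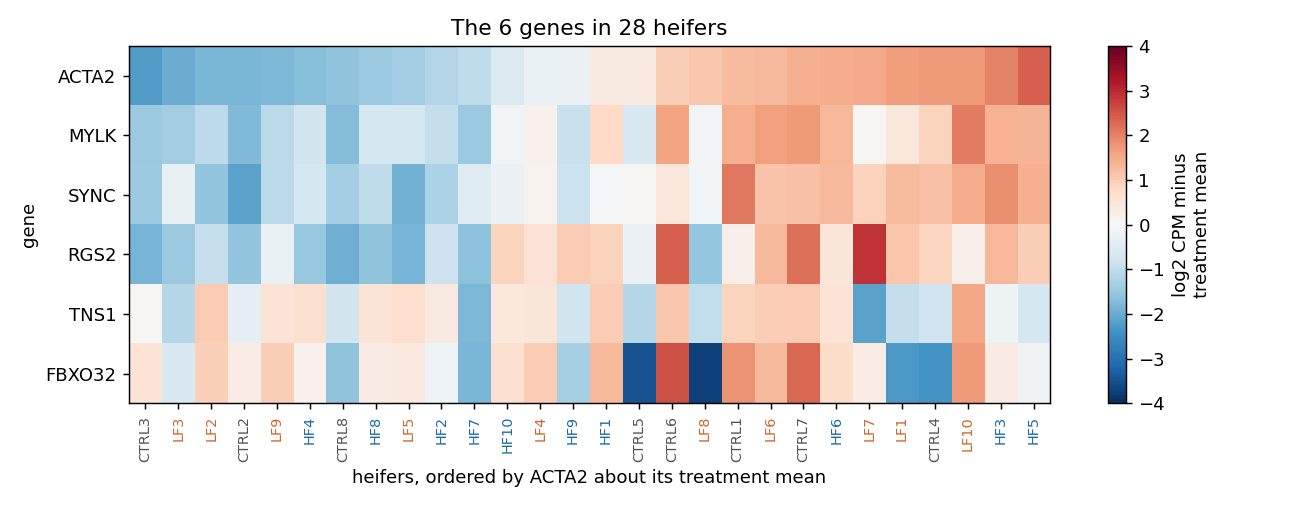
log2 CPM minus the treatment mean (colour, blue low and red high) of the 6 genes (rows) in 28 heifers (columns, ordered by ACTA2, labels coloured by treatment). MYLK, SYNC and RGS2 pass from blue to red with ACTA2, and the 4 darkest blue cells of FBXO32 lie in CTRL5, LF8, LF1 and CTRL4, all above the ACTA2 mean of their treatment.

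MYLK shared in both patterns. ACTA2 alone accounted for 77.3% of its variance within treatments, and ACTA2 with TNS1 for 96.8%. The share for SYNC was 82.9% with ACTA2 and 83.2% with both, that for RGS2 57.2% and 58.2%, and that for FBXO32 0.01% and 58.0%. Adding TNS1 thus raised the shares of MYLK and FBXO32 and hardly moved those of SYNC and RGS2. In an edgeR fit added after seeing the data, with ACTA2, TNS1 and treatment together, the slope on TNS1 was 0.55 ± 0.05 for MYLK (adjusted p = 1.72e-10) and 0.98 ± 0.19 for FBXO32 (adjusted p = 7.98e-05). It was 0.07 ± 0.10 for SYNC (adjusted p = 0.554) and 0.08 ± 0.18 for RGS2 (adjusted p = 0.730). In that fit 60.7% of all genes varied with TNS1, and 30.1% of all genes rose with it. A call there is therefore common and sets neither MYLK nor FBXO32 apart.

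TNS1 also moved with measures of the whole library. Its r was 0.89 with the first principal component of all genes within treatments, which held 35.9% of their variance, 0.68 with the number of genes detected and -0.50 with log2 total count. For FBXO32 these were 0.68, 0.55 and -0.45, and for ACTA2 -0.46, -0.33 and -0.02. LF7 had the lowest value of that component, the fewest genes detected (16631) and the lowest TNS1. In a fit added after seeing the data with the first component as a covariate, TNS1 and FBXO32 rose with ACTA2. Their slopes were then 0.30 ± 0.03 (adjusted p = 1.03e-07, edgeR) and 0.48 ± 0.14 (adjusted p = 0.0333), beside 5.75% of all genes rising. With that component removed, r with ACTA2 was 0.89 for TNS1, 0.49 for FBXO32 and 0.98 for MYLK. On the same scale TNS1 and FBXO32 had r = 0.46 with each other. TNS1 then had r = 0.90 with MYLK, 0.80 with SYNC and 0.73 with RGS2. FBXO32 had 0.76 with RGS2, 0.57 with MYLK and 0.56 with SYNC, so the division of the genes was not kept. The component was computed from the same values, and its r had opposite signs with ACTA2 and with TNS1 and FBXO32. Removing it therefore raises their r with ACTA2 by itself, so these fits are descriptions. The part of depth and of the genes detected in these relations was not tested.

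The name of smooth muscle genes was checked against markers. Of 8 defining smooth muscle markers looked for, only SMTN, smoothelin, could be tied to a gene ID, and the others were not analysed here. SMTN was detected in every heifer, with at least 1390 counts, and had 68.0 to 511 CPM in HF, 79.5 to 514.5 CPM in LF and 93.9 to 556 CPM in CTRL heifers. Its r was 0.93 with ACTA2, 0.83 with RGS2, 0.18 with FBXO32 and 0.04 with TNS1. SYNC, MYLK and RGS2 passed the test with SMTN in place of ACTA2, and TNS1 and FBXO32 did not (edgeR adjusted p = 0.634 and 0.280), in a fit that called 1035 genes. With the mean of 18 named smooth muscle genes in place of ACTA2, a reference added after seeing the data, TNS1 and FBXO32 passed as well (adjusted p = 0.0454 and 0.0368), in a fit that called 620 genes. ACTA2, MYLK, SYNC and RGS2 thus varied with the 1 defining marker at hand, and for TNS1 and FBXO32 the call depended on the reference.

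No named marker of another cell type passed the test with ACTA2, apart from a pericyte marker, and 11.4% of all genes passed it, so the 1 call among these 10 markers is near the share over all genes. MCAM, the only named gene of 7 pericyte markers, rose with ACTA2 (slope 0.19 ± 0.04, edgeR adjusted p = 0.00633), and it had 62.4 to 150 CPM in HF, 76.1 to 161 CPM in LF and 84.1 to 271 CPM in CTRL heifers. MCAM is also made by smooth muscle and endothelium. None of 3 named epithelial markers of 10 passed the test with ACTA2, and their summed CPM was 172 to 456 in HF, 306 to 409 in LF and 173 to 383 in CTRL heifers. The same was true of VIM, the only named stromal marker of 8, and of 5 named leukocyte markers of 8. The VIM level was 2121 to 3055 CPM in HF, 1570 to 3201 CPM in LF and 1356 to 2452 CPM in CTRL heifers, and the summed leukocyte level 495 to 896, 544 to 823 and 507.5 to 707 CPM. None of these markers was at 0 in any heifer. With TNS1 the epithelial sum had r = -0.58 and VIM r = -0.61. The leukocyte sum, most of it CD74 with a mean of 612 CPM, had r = -0.17. Its members LYN and CD4 had r = 0.49 and 0.46 with TNS1, and LCK, CD74 and CD53 had -0.34, -0.18 and -0.16. The part of these markers in the variation of TNS1 was not tested. Endothelial, striated muscle and erythrocyte markers had no named gene.

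The genes whose pattern was most like that of ACTA2 included factors of actin filaments and of adhesions. Among the 1513 named genes that passed the filter, and leaving out the 6 genes described here, the 10 with the highest r were RAP1GDS1, CFL2, FERMT2, CAP1, SMTN, FLNA, LIMS2, HSPB6, MEIS2 and BAG2, with r from 0.95 to 0.90. RAP1GDS1, a guanine nucleotide exchange stimulator of small GTPases, had r = 0.95 and a slope of 0.70 ± 0.04 (edgeR adjusted p = 2.31e-12). CFL2, the muscle cofilin that severs actin filaments, had r = 0.95 and a slope of 0.49 ± 0.03. CAP1, another actin turnover factor, changed by only 0.27 ± 0.02 per log2 unit of ACTA2 at r = 0.94. BAG2, a co-chaperone, had almost the full slope of ACTA2 (0.95 ± 0.09) at r = 0.90. The 5 named genes with the lowest r were SMARCD2 (-0.76), YIPF7 (-0.72), CENPO (-0.71), PBX4 (-0.68) and ABHD14B (-0.68). Names were at hand mostly for genes with a small p in the study's LF against CTRL comparison, so genes without a name are missing from these orders.

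Of a list of 39 smooth muscle genes, 20 had a name and 18 were not among the 6 genes. Of these 18, 12 rose with ACTA2, none fell and 6 did not pass the test, beside 7.95% of all genes and 14.3% of the named genes rising. Their median r with ACTA2 was 0.70, and that of all genes was -0.04. SMTN (slope 0.59 ± 0.05), FLNA, a filamin that cross-links actin (0.58 ± 0.05), HSPB6, a small heat shock protein of muscle (0.42 ± 0.04), and NEXN, nexilin (0.69 ± 0.08), had the highest r, 0.93 to 0.90. PPP1R12B, a subunit of the phosphatase that reverses the action of MYLK, and CASQ2, a calcium store protein of muscle, had the lowest, -0.05 and 0.08.

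The smooth muscle list spread between the patterns of ACTA2 and TNS1. PPP1R12B had r = 0.94 with TNS1, CALD1, which encodes the actin-binding caldesmon, had 0.86, PPP1R12A 0.84 and PRKG1, a kinase of relaxation, 0.82, whereas their r with ACTA2 was at most 0.37. MYOCD, the coactivator that drives smooth muscle genes, and SYNM, synemin, lay between, with r = 0.71 and 0.70 with ACTA2 and 0.59 and 0.61 with TNS1. CALD1, PPP1R12A, PRKG1, MYOCD and SYNM were singled out after their values were seen. With ACTA2 in the same fit, 13 of the 18 genes rose with TNS1, beside 30.1% of all genes.

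**Figure D4:**
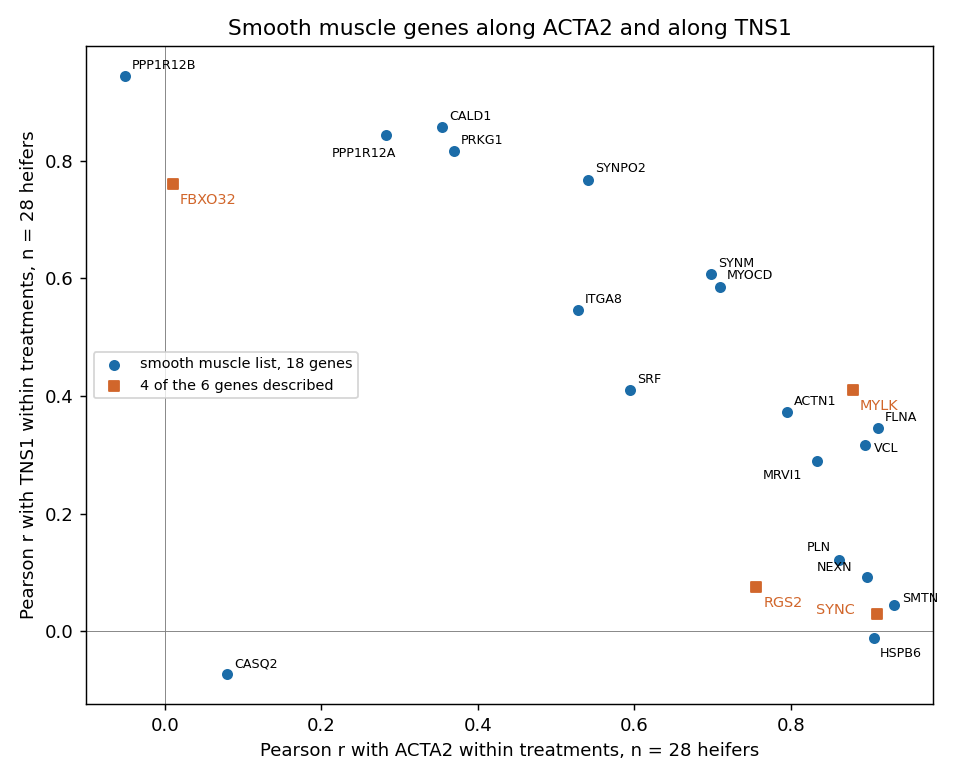
Pearson r with ACTA2 (x) and with TNS1 (y) within treatments over 28 heifers, for 18 smooth muscle list genes (circles) and for MYLK, SYNC, RGS2 and FBXO32 (squares). SYNC, SMTN and HSPB6 lie at r of 0.90 or more with ACTA2 and near 0 with TNS1, FBXO32 and PPP1R12B lie near 0 with ACTA2 and at 0.76 and 0.94 with TNS1, and MYLK has 0.88 and 0.41.

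Genes that share a role with the 6 genes were counted in the same fit. In the control of the myosin light chain, PPP1R12C rose with ACTA2 (slope 0.25 ± 0.04, edgeR adjusted p = 1.87e-05), while PPP1R12A, MYLK3, ROCK1 and PPP1R12B did not pass, so 1 of 5 genes other than MYLK rose, beside 7.95% of all genes and 14.3% of the named genes. Among adhesion genes other than TNS1, 4 of 5 rose, namely FERMT2 (kindlin 2, slope 0.38 ± 0.03), LIMS2 (0.58 ± 0.05), VCL (vinculin, 0.41 ± 0.04) and ZYX (zyxin, 0.31 ± 0.04). PARVA, a parvin of the same adhesions, had 0.14 ± 0.06 and did not pass (adjusted p = 0.0909), and its r was 0.74 with TNS1.

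Of 9 genes for RGS proteins and contractile receptors other than RGS2, 3 rose with ACTA2 and none fell, beside 14.3% of the named genes rising and 3.5% of all genes falling. They were PTGFR, the prostaglandin F receptor (slope 1.25 ± 0.20, edgeR adjusted p = 7.78e-05), CHRM3, a muscarinic receptor coupled to Gq (0.93 ± 0.14, adjusted p = 5.93e-05), and HTR2A, a serotonin receptor coupled to Gq (0.73 ± 0.19, adjusted p = 0.0185). HTR2A had a mean of only 0.816 CPM, and its r was 0.50 with ACTA2 and 0.72 with FBXO32. The RGS relatives RGS1 and RGS4 had slopes of 0.00 ± 0.07 and -0.08 ± 0.11 and did not pass the test. RGS1 was named apart from the order by r. EDNRB, next by r after HTR2A, and PLCB1, next to RGS4 at the low end, had slopes of 0.015 ± 0.11 and 0.05 ± 0.09. Neither passed the test, and r of PLCB1 with TNS1 was 0.93. SYNM, the only other named intermediate filament gene of the muscle linker list, rose with ACTA2 (0.59 ± 0.11).

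In the list for muscle wasting, TRIM63 (MuRF1), the ubiquitin ligase usually named beside FBXO32, rose with ACTA2 (slope 0.86 ± 0.19, edgeR adjusted p = 0.00429), and its r was 0.65 with ACTA2, 0.87 with RGS2 and 0.55 with FBXO32. FBXO30, another F-box gene, had r = 0.05 with ACTA2, 0.91 with TNS1 and 0.79 with FBXO32. MSTN, myostatin, had r = -0.31 with ACTA2. Of the 3 genes of this list other than FBXO32, 1 rose with ACTA2 and none fell, a count too small to set beside the 14.3% of named genes that rose. The difference between TRIM63 and FBXO32 in their relation to ACTA2 was not tested.

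Between HF and LF heifers none of the 6 genes differed beyond the spread between heifers. The log2 fold change of HF over LF was 0.01 ± 0.61 (SE) for ACTA2, with a 95% interval of -1.28 to 1.29, and the edgeR adjusted p was 0.9994. It was 0.08 ± 0.48 for MYLK (interval -0.92 to 1.08), 0.18 ± 0.48 for SYNC (-0.82 to 1.19), -0.03 ± 0.56 for RGS2 (-1.20 to 1.15) and 0.16 ± 0.40 for TNS1 (-0.68 to 0.997). The mean log2 CPM of RGS2 was 5.84 in HF and 5.50 in LF heifers and that of ACTA2 9.92 and 9.95, so for both the fitted difference and the difference of log means had opposite signs. FBXO32 had the largest estimate, 0.56 ± 0.48, with an interval of -0.45 to 1.57 and an adjusted p of 0.825. These intervals leave room for differences of more than 1.5-fold either way for ACTA2, MYLK, SYNC, RGS2 and TNS1. The fits took heifers as independent and left out the bull, although fertility belongs to the bull and each bull served 2 heifers. Over all 14793 genes tested edgeR called 0 (0%), 1171 (7.92%) had an unadjusted p under 0.05, and DESeq2 called 27 of the 16625 genes it tested (0.162%), none of the 6 among them. The HF and LF heifers overlapped in all 6 genes, and 0.00676% of all genes did not overlap. With ACTA2 as a covariate, the SE of the difference fell to 0.24 for MYLK and 0.22 for SYNC, and the log2 fold changes were 0.11 and 0.13.

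Against CTRL heifers all 6 genes had lower fitted levels in both inseminated treatments, with wide errors. The 2 comparisons share the CTRL heifers and were in view when the genes were chosen. The log2 fold change of HF over CTRL was -1.10 ± 0.64 (SE) for ACTA2, -1.30 ± 0.55 for MYLK, -1.27 ± 0.56 for SYNC and -1.20 ± 0.60 for RGS2. It was -0.55 ± 0.36 for TNS1 and -0.80 ± 0.62 for FBXO32. For LF over CTRL the values were -1.12 ± 0.63 for ACTA2, -1.39 ± 0.57 for MYLK, -1.47 ± 0.55 for SYNC and -1.18 ± 0.70 for RGS2. TNS1 had -0.72 ± 0.44 and FBXO32 -1.37 ± 0.71. For each gene the CPM of CTRL heifers overlapped with those of HF and of LF heifers, while of all genes 0.0403% did not overlap between HF and CTRL and 0.00673% between LF and CTRL. FBXO32 had a mean log2 CPM of 4.55 in HF and 4.46 in CTRL heifers, so its fitted difference, which weighs counts, and its difference of log means had opposite signs.

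Holding ACTA2 fixed moved these differences towards 0 for MYLK and SYNC and past 0 for RGS2. ACTA2 was itself lower against CTRL heifers, so a shift in this direction follows from the slopes already given and is no separate result. With ACTA2 as a covariate, HF over CTRL was -0.15 ± 0.28 for MYLK, -0.20 ± 0.25 for SYNC and 0.24 ± 0.48 for RGS2, and LF over CTRL was -0.29 ± 0.32, -0.40 ± 0.31 and 0.05 ± 0.52. TNS1 and FBXO32 moved less, to -0.41 ± 0.43 and -0.29 ± 0.70 for HF over CTRL and to -0.56 ± 0.51 and -0.98 ± 0.84 for LF over CTRL. These fits were added after seeing the data.

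**Figure D5:**
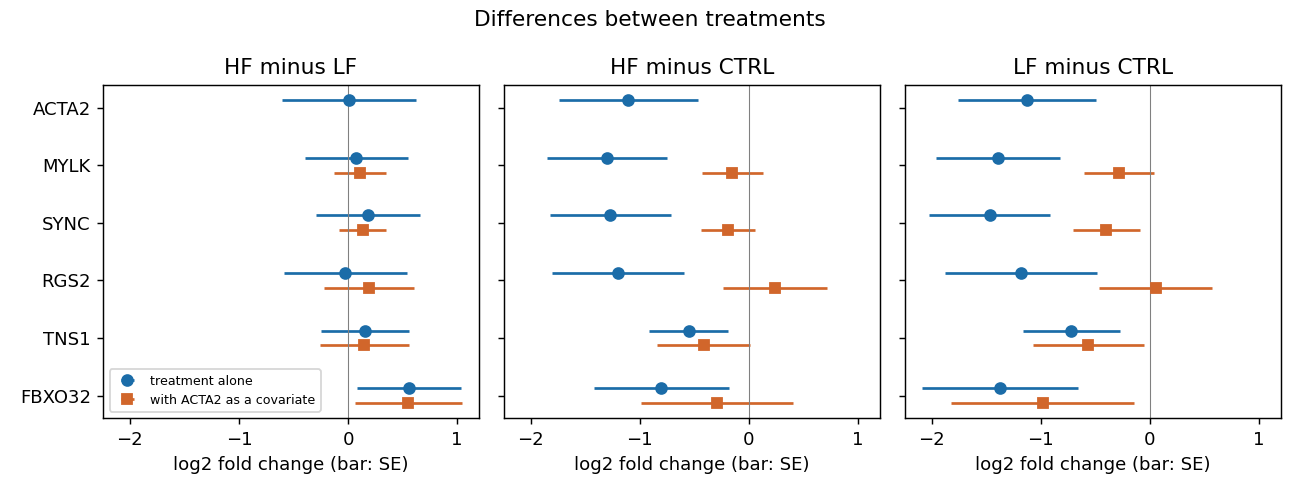
Fitted log2 fold change (x, bars are SE) of each gene (y) in the 3 comparisons, from treatment alone (circles) and with ACTA2 as a covariate (squares). HF minus LF lies near 0 for ACTA2, and against CTRL heifers the squares of MYLK, SYNC and RGS2 lie closer to 0 than the circles.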

How the data were processed

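RNA from 1 post-mortem uterine biopsy of each of 28 heifers was sequenced after stranded poly(A) library preparation as paired reads of 100 bases. The authors trimmed reads with BBDuk, aligned them to ARS-UCD1.2 with STAR and deposited whole-number counts of uniquely mapped reads per Ensembl gene, with no normalization. STAR 2.6.1b and Subread 1.6.3 stand in the submitters' processing notes. A strand setting for the counting was not found in the labels or methods. The deposited counts hold 24596 gene IDs and no names. Names of 1522 IDs came from the study's tables and supplement, where they lean towards small p in LF against CTRL, and treatment, bull, breed and study replicate from the labels and supplement.

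Counts were filtered with filterByExpr (minimum count 10), scaled by TMM and tested in edgeR 4.0.16 by the quasi-likelihood test (R 4.3.3), with Benjamini-Hochberg adjustment over all genes and a threshold of 0.05. log2 CPM used a prior count of 2, and SE is the log2 fold change over the square root of F. Intervals of 95% used the t quantile at the residual degrees of freedom. DESeq2 1.42.0 and limma 3.58.1 gave alternatives. The 6 genes and all lists were chosen with earlier results of these data known. Named beside them were the 10 genes with the highest and 5 with the lowest r with ACTA2, and of each list up to 4 highest and 2 lowest. Other names, apart from RGS1, are marked as chosen after seeing values. Fits were tested on simulated data. The p-values judge a slope, correlation or difference against the spread between heifers. The bull was left out, so they do not reflect variation between bulls.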

Additional observations from a re-analysis of the deposited data

How the results depend on the processing

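The slopes of SYNC and RGS2 on ACTA2 kept their direction and passed the threshold in all 8 alternatives to the fit and when each of the 28 heifers was left out in turn, where they were 0.70 to 0.79 and 0.70 to 0.84. The slope of MYLK, a description, was 0.70 to 0.76 without 1 heifer. That of FBXO32, 0.18, was 0.13 to 0.23 without 1 heifer, 0.033 with limma-voom and 0.048 with breed as a covariate, and passed the threshold with the first principal component as a covariate and with the mean of 18 smooth muscle genes as reference. The slope of TNS1 passed in the same 2 fits and otherwise lay near 0, at -0.026 with limma-voom, -0.0070 with breed as a covariate and -0.035 to 0.073 without 1 heifer, the lowest without LF10. The number of genes that vary with ACTA2, 1736, was 987 with breed as a covariate, 1035 with SMTN in place of ACTA2, 620 with the mean of 18 smooth muscle genes and 1054 with the first principal component. It was 892 without HF5, 937 without LF2, 955 without CTRL3, 1055 without CTRL2, 1057 without LF1, 1109 without HF8, 1137 without CTRL4, 1143 without LF5, 1155 without HF4, 1157 without LF9, 2606 without LF3, 2646 without LF6 and 2993 without LF10, and the cause was not tested. The number that varies with TNS1, 9200 with ACTA2 in the fit, was 1404 with the first principal component in its place, and the slopes of SYNC and RGS2 on TNS1 then passed the threshold. The median r of the 15 pairs of the 6 genes, 0.41, was 0.62 in HF heifers alone, 0.68 in CTRL heifers alone, -0.064 in study replicate 1, 0.62 in study replicate 2 and 0.37 to 0.48 without 1 heifer.

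Between treatments edgeR called 0 genes in each comparison, while 1171, 2386 and 839 genes had an unadjusted p under 0.05 in HF against LF, HF against CTRL and LF against CTRL. DESeq2 called 27, 328 and 2 genes. With ACTA2 and TNS1 as covariates edgeR called 1 gene in HF against LF. Near 0, the log2 fold change of HF over LF turned for RGS2 to 0.12 with the study replicate as a covariate, 0.19 with ACTA2 and 0.31 with ACTA2 and TNS1, and for MYLK to -0.013 with ACTA2 and TNS1. Fitted as a replicate block, the heifer numbers gave -0.23 for ACTA2 and 0.45 for RGS2 and 0 genes called in each comparison. The numbers are no pairing by design, since same-numbered heifers are different animals. HF5 and LF5 were in study replicate 1 and CTRL5 in study replicate 2. Same-numbered heifers correlated above 0.1 in 5 of 10 pairs of HF and LF, 5 of 8 of HF and CTRL and 4 of 8 of LF and CTRL. These counts alone cannot decide whether the numbers pair heifers.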

Other observations

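When the choice of the 10 highest r among named genes, fixed for ACTA2, was applied after seeing the data to the other patterns, TNS1 lay nearest to SYNJ1 (r = 0.97), which encodes a phosphoinositide phosphatase, to ZEB1 (0.96), a repressor of epithelial genes, and to CEP170 (0.95). TNS1 lay farthest from COX16 (-0.92) and PSMB8 (-0.90). FBXO32 lay nearest to SIPA1L1 (0.89), TLK1 (0.87) and MPDZ (0.87), and ZEB1 had r = 0.84 with it. RGS2 lay nearest to TRIM63 (0.87), MEIS2 (0.87) and MRVI1 (0.86), a target of cGMP kinase in smooth muscle. The high values near TNS1 are common, since 5% of all genes had an r of at least 0.85 with it, against 0.57 with ACTA2.

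Among the genes nearest to RGS2, SFRP2, a modulator of Wnt signals, had r = 0.85 with RGS2 and 0.84 with ACTA2, and COL4A5, a basement membrane collagen, had 0.83 and 0.86. IL17B, at a mean of only 3.49 CPM, changed by 1.16 ± 0.11 log2 units per log2 unit of ACTA2, and PTGFR by 1.25 ± 0.20, and these slopes were not tested against 1, while FLNA, at a mean of 2143 CPM, changed by 0.58 ± 0.05.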
